A study of Homo sapiens with 4 samples.

Results

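Chemokines, interleukins and the receptors of both were read as 185 of the 41000 probes on each array, chosen by gene name alone: every non-control probe named for a CXC or CC chemokine, a chemokine receptor, or an interleukin and its receptors. The 185 probes carry 138 of the 30982 gene names in the files and sit on 284 spots, and all 185 matched a current symbol. The cells are HCT116, an established line from a human colon carcinoma. The labels describe its clones #3-1 and #4-7, each expressing N-BLR shRNA, and a clone with empty vector, each being 1 clone. N-BLR is a long non-coding RNA, and no probe for it was analysed here. The labels say that the cells received lentivirus, whereas the study's methods describe transfected shRNA vectors and drug selection. Each shRNA clone was hybridised on 2 Agilent 2-colour arrays, called biological replicates in the labels and duplicates in the methods. On all 4 arrays the labels put the shRNA clone in Cy5 and the empty vector RNA in Cy3, so that no array has the dyes exchanged.

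Chemokines are small secreted proteins that draw leukocytes along a gradient by binding receptors of the G protein-coupled family. CXC chemokines with a Glu-Leu-Arg motif before the first cysteine include CXCL1 to CXCL3, CXCL5, CXCL6 and CXCL8. Those named act mainly on neutrophils and are classic NF-kB targets in colon epithelium. Interleukins signal through paired receptor chains: members of the IL-1 and IL-18 family reach NF-kB through MyD88, and most of the others reach STAT factors through JAK kinases. Colon cancer cells are known to make some of these ligands, while most of the receptors are best known on leukocytes.

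The levels in the channels went against the dye labels, which bears on every sign given here. Over the 26921 probes of the array that were well above background in both channels on all arrays, log2 levels differed between the #3-1 and #4-7 arrays with an SD of 0.464 in Cy3, where the labels put the same control RNA, and of 0.127 in Cy5, where they put different clones. The spread between the arrays of a clone would give 0.0946 in Cy5 and 0.0945 in Cy3. The 66 chemokine and interleukin probes that met this criterion had the same order, at 0.556 in Cy3 and 0.138 in Cy5. The study also describes E-cadherin (CDH1) as raised and vimentin (VIM) as lowered in the clones, whereas here CDH1 was lower in Cy5, at log2 ratios of -2.60 on the #3-1 arrays and -1.34 on the #4-7 arrays, and the VIM probe A_23_P161190 was higher in Cy5, at 4.45 and 2.39. Values are therefore given as Cy5 over Cy3 with the arrays named by their labels, no sign is read as the effect of the shRNA, and every sign, also that of a difference between the clones, would turn if Cy3 held the clones.

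Of the 185 probes, 66 (35.7%) were well above background in both channels on all 4 arrays and are called measured, against 65.7% of all probes. By the software's less strict flag, signal positive and significant, 96 would be. Another 32 were above background in some channels or arrays, and 87 (47%) in none, against 24.0% of all probes. In terms of genes, 52 of 138 had a measured probe and 60 had no probe above background in any channel or array. None of the 185 probes was saturated. CXC chemokines without the Glu-Leu-Arg motif were read least often, with 1 of 10 probes measured (CXCL16), followed by chemokine receptors, with 3 of 24. The IL-17 family and its receptors were read most often, at 7 of 11 probes, followed by the IL-12 family at 6 of 10.

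**Figure D1:**
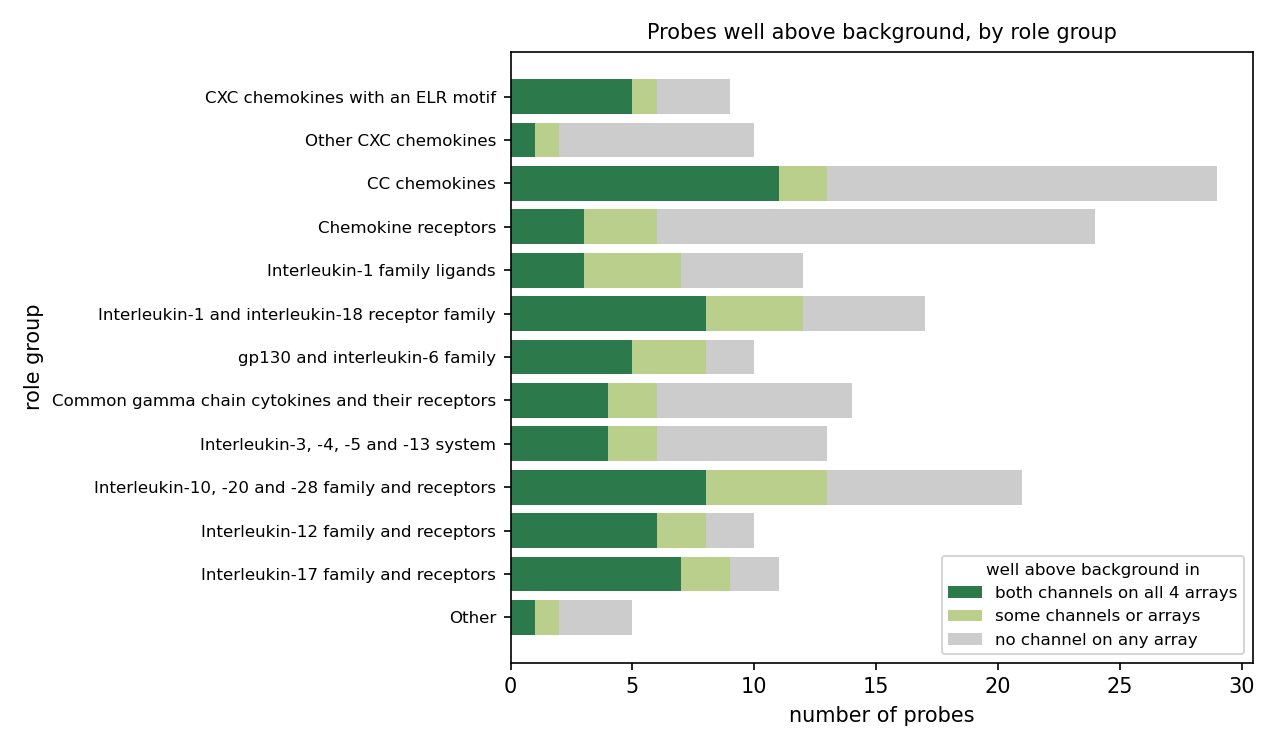
Number of probes in each role group (x axis), split by whether the scanner software flagged them as well above background in both channels on all 4 arrays (dark green), in some channels or arrays (light green) or in none (grey). Of the 24 chemokine receptor probes 3 are measured, against 7 of the 11 probes of the IL-17 family and its receptors.

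Several of the best known members of these families lie among the probes without signal. CXCL8, listed under its older name IL8 and the chief neutrophil chemokine of epithelium, was not well above background in any channel. The same held for CCL20, which draws CCR6-bearing cells to the gut, for CCL28, a mucosal chemokine, for IL1B and for all 3 probes of CXCL12, the ligand of CXCR4. IL6, IL1A and IL32 were above background in some channels or arrays only, and their log2 ratios lay within 0.11 of 0 on the mean of each clone's arrays. A level under background sets no ratio, and 1 of the 87 probes without signal passed the threshold in each of the 3 tests below.

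The leukocyte markers PTPRC, CD3D, MS4A1, FCGR3A, LYZ and NKG7 were not well above background in any channel, which leaves 6 of 14 such markers without signal and 7 measured. Those measured include CD68, at log2 ratios of -0.73 and 1.04, and CSF1R, at -2.30 and -0.38 on the #3-1 and #4-7 arrays. Of the 14, limma called 1 higher and 2 lower in Cy5 on the #3-1 arrays at the threshold given below. On the #4-7 arrays it called 3 higher and 2 lower. Of 12 epithelial markers 10 were measured (VIL1 and CEACAM5 had no signal). At the threshold given below, 0 were higher and 6 lower in Cy5 on the #3-1 arrays, and 1 higher and 6 lower on the #4-7 arrays. Over all probes the shares were 16.3% and 16.4%, then 16.1% and 15%. The lower markers were not the same in both clones: KRT19 was at -0.80 and 0.36, and KRT18 passed on the #4-7 arrays only. Of 12 fibroblast and endothelial markers 3 were measured and 6 had no signal. Measured or not, 0 were called higher and 3 lower on the #3-1 arrays, and 2 higher and 2 lower on the #4-7 arrays. What part the markers have in the values below was not tested. The RNA came from clones of the HCT116 line, not from a tissue of several cell types. Bulk RNA does not tell fewer cells with a marker from less RNA per cell.

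A probe was called where limma's moderated test of its log2 ratio gave an unadjusted p under 0.001, the threshold of the methods. On the #3-1 arrays 36 of the 185 probes (19.5%) passed, 16 higher and 20 lower in Cy5, against 32.7% of all probes (16.3% higher and 16.4% lower). On the #4-7 arrays 29 passed (15.7%), 16 higher and 13 lower, against 31.1% of all probes (16.1% and 15%). Among measured probes 15 of 66 were higher and 16 lower on the #3-1 arrays (24% and 23.8% of all measured probes), and 15 higher and 10 lower on the #4-7 arrays (23.6% and 21.9%). In either direction the shares were 47% against 47.9% for #3-1 and 37.9% against 45.5% for #4-7, so that neither count stood above its background. The largest Benjamini-Hochberg adjusted p of limma among the called probes of the array was 0.0031 for #3-1 and 0.0032 for #4-7. Changes of at least 2-fold that passed were few, with 5 probes on the #3-1 arrays (2.12% of all probes), 3 on the #4-7 arrays (1.71%) and 4 in the difference between them (2.48%). The counts rest on each array of a clone: without #3-1 array 1 or 2, the lower probes there came to 11 and 10, and without #4-7 array 1 or 2, the higher probes there came to 10 and 9 and the lower ones to 6 in each case. The median log2 ratio of the 185 probes was 0.01 on both, the same as over all probes.

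The difference between the clones' ratios passed the same test in 33 of the 185 probes (17.8%), 12 with the higher ratio on the #3-1 arrays and 21 with the lower, against 22.6% of all probes (11% and 11.6%). Among the 66 measured probes 29 passed (43.9%), 10 higher and 19 lower, against 33.2% of all measured probes (16.4% and 16.9%). The 33 came to 20 without #3-1 array 1, 21 without #3-1 array 2 and 20 without #4-7 array 2. In each of these 29 the level moved further between the clones in Cy3 than in Cy5, as in 57 of the 66. Tested on Cy3 alone, 32 of the 185 probes differed between the clones' arrays (18.3% of all probes did), and tested on Cy5 alone 1 did (0.0927% of all probes), which was IL13, at a log2 difference of -0.37 with both channels below background on the #3-1 arrays. Among the 66 measured probes limma called 29 on Cy3 alone (26.9% of all measured probes) and 0 on Cy5 alone (0.119%), with 51 and 6 at an unadjusted p under 0.05. The single-channel tests were added after the levels had been seen.

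**Figure D2:**
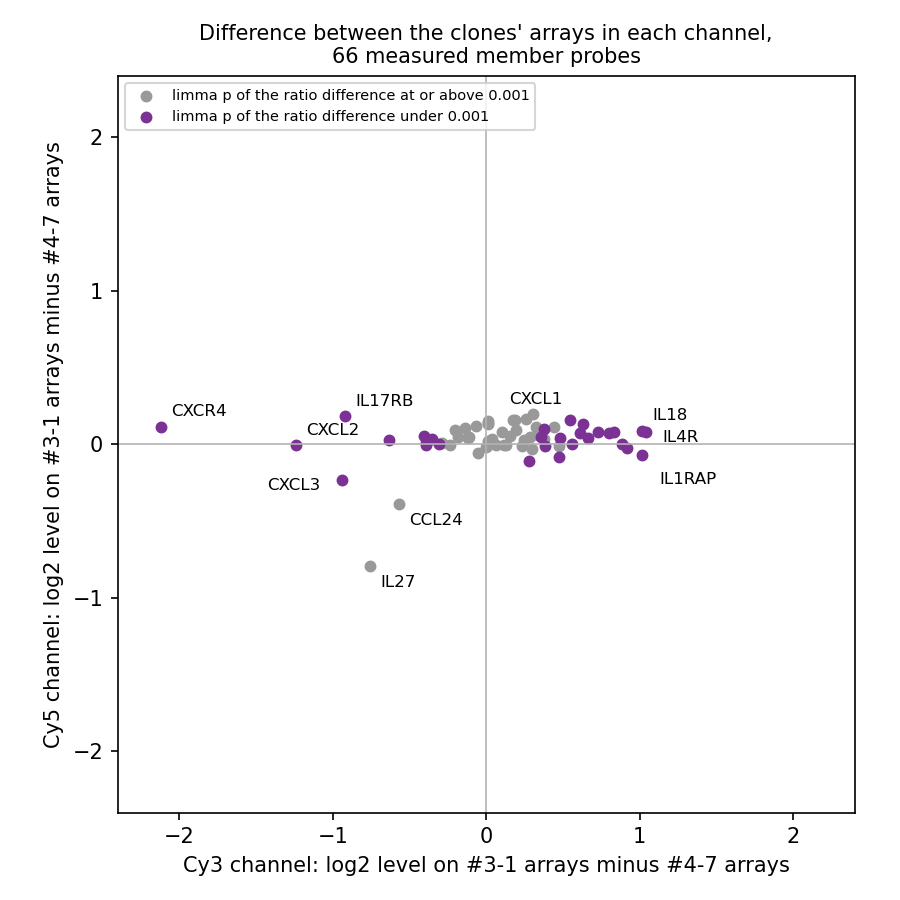
Mean log2 level on the #3-1 arrays minus that on the #4-7 arrays, in the Cy3 channel (x axis) and in the Cy5 channel (y axis), for the 66 measured probes, with both axes on one scale. Purple points are the 29 probes whose log2 ratio differed between the clones at limma p under 0.001. The points spread along the Cy3 axis, from -2.12 for CXCR4 to 1.04 for IL4R, and most lie near 0 on the Cy5 axis, where IL27 (-0.79) and CCL24 (-0.39) stand farthest from it.

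The sequences that bear on the chemokine results are the promoters of the neutrophil chemokines and a pair of probes that share bases. In RefSeq's GRCh38.p14 annotation, 145 of 35116 promoters (0.413%) hold GGAATTTCC, a core letter string of NF-kB sites, on either strand in the 250 bases before the start. Of the 163 promoters found for 110 of the 138 symbols, 10 hold it (6.13%). All 6 chemokines with the Glu-Leu-Arg motif among the 138 symbols are among these 10, and the letters end between 68 and 82 bases before their start sites. The window around the letters (in capitals) is given 5′ to 3′ on the gene's strand:

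CXCL1: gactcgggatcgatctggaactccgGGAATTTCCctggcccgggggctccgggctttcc
CXCL2: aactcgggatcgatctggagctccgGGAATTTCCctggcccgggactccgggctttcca
CXCL3: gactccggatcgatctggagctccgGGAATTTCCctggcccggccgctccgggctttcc
CXCL5: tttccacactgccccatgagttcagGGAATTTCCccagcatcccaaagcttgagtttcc
CXCL6: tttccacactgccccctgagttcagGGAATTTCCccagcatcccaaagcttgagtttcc
CXCL8: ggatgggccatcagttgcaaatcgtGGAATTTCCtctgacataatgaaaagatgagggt

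They lie at chr4:73869290-73869348 (CXCL1, plus strand), chr4:74099239-74099297 (CXCL2, minus), chr4:74038734-74038792 (CXCL3, minus), chr4:73998734-73998792 (CXCL5, minus), chr4:73836564-73836622 (CXCL6, plus) and chr4:73740453-73740511 (CXCL8, plus). CXCL10, CXCL11 and IL18RAP hold the letters on the other strand. The match is one of letters only, and these 6 genes, which share the string, had different signals on the arrays, since CXCL6 and CXCL8 were below background in every channel.

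Of the 9 probes of the neutrophil chemokines on the #3-1 arrays, 6 were higher in Cy5 and 0 lower by limma (6 and 2 at an unadjusted p under 0.05), where 16.3% of all probes and 24% of measured probes were higher. Their median log2 ratio was 0.52, against 0.01 over all probes. The count and the median are of probes, not genes: the 9 belong to 6 genes, and CXCL2 and CXCL3 have 2 measured probes each. On the #4-7 arrays 2 of the 9 probes were higher and 1 lower (16.1% and 15% of all probes), with a median of 0.10. CXCL1 stood highest of the 185 probes in both clones (probe A_23_P7144, chr4:75101885-75101944 in build hg17, as are all probe positions here). Its log2 ratio was 1.79 and 1.81 on the #3-1 arrays and 2.33 and 2.35 on the #4-7 arrays. All 4 arrays lay above 0 and the clones did not overlap. This is 3.48-fold (SE 0.0281 on the log2 scale, adjusted p = 7.7e-06 by limma) and 5.06-fold (adjusted p = 4.4e-06), and the difference of -0.54 between the clones passed the test (adjusted p = 0.00044, limma). That call, though not its direction, was lost with background subtraction (-0.64), processed signals or the authors' ratios (-0.71 in each) and without quantile normalization (-0.40). In Cy5 the CXCL1 level was 10.47, 10.46, 10.44 and 10.34, and in Cy3 it was 8.68 and 8.65 on the #3-1 arrays and 8.12 and 7.99 on the #4-7 arrays.

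CXCL2 differed between the clones in sign on 1 of its 2 measured probes. Its probe A_23_P315364 (chr4:75328020-75328079) gave log2 ratios of 0.99 and 1.01 on the #3-1 arrays, a 2.00-fold higher Cy5 (adjusted p = 2e-05, limma), and of -0.21 and -0.25 on the #4-7 arrays (1.17-fold lower, adjusted p = 0.0018). The call on the #4-7 arrays was lost without any 1 of the 4 arrays, at log2 ratios between -0.25 and -0.21. The difference was 1.23 (SE 0.0418, adjusted p = 6.3e-05). Here too Cy5 stayed between 9.32 and 9.38 on all arrays, while Cy3 was 8.34 and 8.36 on the #3-1 arrays and 9.57 and 9.60 on the #4-7 arrays. The second CXCL2 probe, A_24_P257416 (chr4:75329377-75329436), had a smaller difference of 0.66, which did not pass without #4-7 array 1 (0.67) or array 2 (0.65), and a ratio of 0.19 on the #4-7 arrays that did not pass (adjusted p = 0.018, limma).

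The CXCL3 probes disagreed with each other, and one of them shares bases with a CXCL2 probe. Probe A_24_P183150 (chr4:75267737-75267796) was higher in Cy5 on all 4 arrays, at 0.66 and 0.61 on the #3-1 arrays and 0.72 and 0.76 on the #4-7 arrays. Its difference of -0.10 between the clones did not pass (adjusted p = 0.13, limma). Probe A_24_P251764 (chr4:75268026-75268900) gave 0.46 and 0.57, then -0.20 and -0.19, a difference of 0.71 (adjusted p = 0.00044, limma) in the same direction as CXCL2. That difference did not pass with background subtraction (0.85), processed signals or the authors' ratios (0.86 in each). This CXCL3 probe and the CXCL2 probe A_24_P257416 match in 30 of 32 bases where they overlap. The overlap is in capitals, with the differing bases inside it in lower case:

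CXCL2: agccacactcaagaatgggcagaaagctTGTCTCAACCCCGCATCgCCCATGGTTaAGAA
CXCL3: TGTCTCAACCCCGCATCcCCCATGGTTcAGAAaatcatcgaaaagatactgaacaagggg

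Whether either probe also reads the other transcript was not tested. CXCL5 was above background in some channels or arrays only and passed on the #3-1 arrays, at 0.27.

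Of the other chemokines, CCL26, an eotaxin that acts through CCR3, stood highest. Its probe A_23_P215484 (chr7:75043712-75045870) gave 0.72 and 0.74 on the #3-1 arrays and 0.97 and 0.98 on the #4-7 arrays, or 1.66-fold and 1.97-fold higher in Cy5 (adjusted p = 3.5e-05 and 2.3e-05, limma). The second CCL26 probe passed in both clones as well, at 0.48 and 0.71. CCL25, which guides cells to the small bowel, passed on the #3-1 arrays at 0.39, CCL24 passed on the #4-7 arrays at -0.37, and CCL3 passed there at 0.32. In all, 3 of 29 CC chemokine probes were higher and 1 lower on each clone's arrays. Over all probes the shares were 16.3% and 16.4% on the #3-1 arrays, and 16.1% and 15% on the #4-7 arrays. Of the 29 probes 11 were measured. The lower CC chemokine probe on the #3-1 arrays was CCL28 (-0.21), which had no signal above background and so sets no ratio. Of the other CXC chemokines limma called 0 of 10 probes in either clone (1 in each at an unadjusted p under 0.05), and CXCL16, a membrane-bound chemokine that also serves as a scavenger receptor and the measured probe of that group, gave 0.18 (adjusted p = 0.018) and 0.20 (adjusted p = 0.011, limma).

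CXCR4 was the one receptor of the chemokine family to pass, out of 24 probes. Over all probes 32.7% passed on the #3-1 arrays and 31.1% on the #4-7 arrays, and over measured probes 47.9% and 45.5%. Of the 24 receptor probes only 3 were measured. The difference between the CXCR4 ratios was the largest of the 185 probes. CXCR4 binds CXCL12, a ligand that all 3 of its probes read as below background, and is known for its part in homing and metastasis. Probe A_23_P102000 (chr2:136705685-136705744) gave log2 ratios of 1.22 and 1.18 on the #3-1 arrays and of -1.04 and -1.03 on the #4-7 arrays. The clones lay on opposite sides of 0 without overlap, 2.30-fold higher in Cy5 in the one (adjusted p = 1.5e-05) and 2.05-fold lower in the other (adjusted p = 2.3e-05, limma). The difference of 2.23 (SE 0.0416, adjusted p = 2.1e-05) came with Cy5 levels of 9.15, 9.08, 8.96 and 9.05 and Cy3 levels of 7.93 and 7.91 on the #3-1 arrays and 10.002 and 10.08 on the #4-7 arrays. Between the clones' arrays CXCR4 differed by -2.12 in Cy3 (adjusted p = 4e-05) and by 0.12 in Cy5 (adjusted p = 0.68, limma). CCR10, which is also measured, did not pass in either clone.

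**Figure D3:**
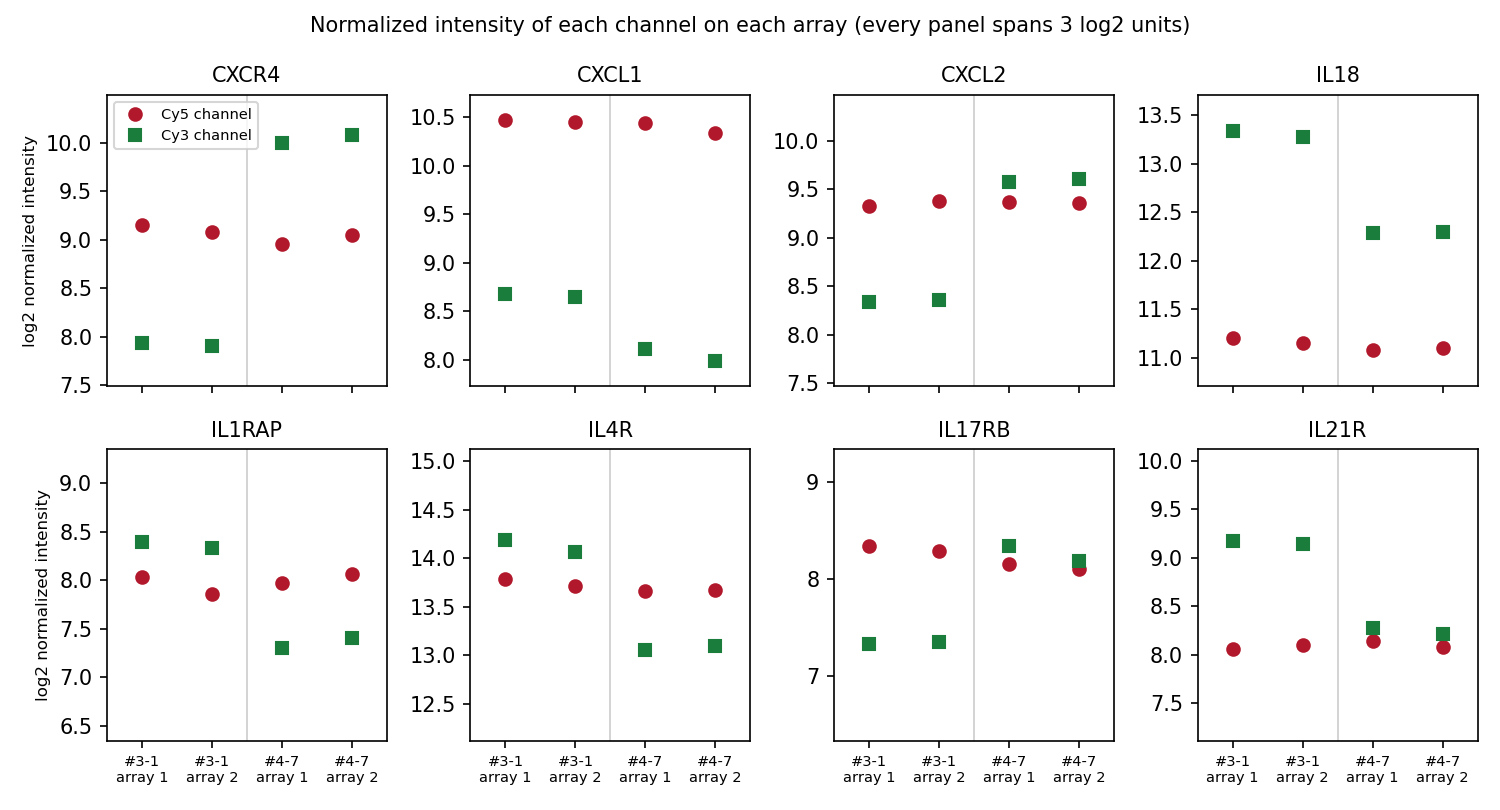
Normalized log2 intensity (y axis) of the Cy5 channel (red circles, labelled shRNA clone) and the Cy3 channel (green squares, labelled empty vector) on each of the 4 arrays (x axis) for 8 probes, with every panel spanning 3 log2 units. For CXCR4 the Cy5 level lies between 8.96 and 9.15 on all arrays, while the Cy3 level is at 7.93 and 7.91 on the #3-1 arrays and at 10.002 and 10.08 on the #4-7 arrays. Levels may be compared within a panel only.

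Among the ligands of the IL-1 family, IL18 gave the lowest ratio of the 185 probes in both clones. IL-18 is made by gut epithelium as a precursor that caspases cut, and it signals through IL18R1 and IL18RAP. Its probe, which reads coding sequence, is at chr11:111526021-111526080:

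IL18: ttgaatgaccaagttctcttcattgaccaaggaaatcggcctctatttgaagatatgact

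The IL18 log2 ratio was -2.13 and -2.12 on the #3-1 arrays and -1.20 and -1.19 on the #4-7 arrays. Cy5 was lower on all 4 arrays, 4.36-fold in the one clone (adjusted p = 6.2e-06) and 2.29-fold in the other (adjusted p = 1.6e-05, limma), with a difference of -0.93 (SE 0.0389, adjusted p = 1e-04). The level in Cy5 was between 11.09 and 11.21, and that in Cy3 was 13.33 and 13.28 on the #3-1 arrays and 12.29 on both #4-7 arrays. IL18 was the one probe of 12 in this group to pass in either clone, where 32.7% and 31.1% of all probes did. Only 3 of the 12 were measured, and 47.9% and 45.5% of measured probes passed. IL1F9, now IL36G, passed in the difference only, at -0.39.

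Of 17 probes for the receptors of the same family, limma called 7 lower and 0 higher on the #3-1 arrays (9 and 1 at an unadjusted p under 0.05), where 16.4% of all probes and 23.8% of measured probes were lower, and their median was -0.17. On the #4-7 arrays 3 were higher and 1 lower (16.1% and 15% of all probes), with a median of 0.04. The difference passed in 5, all with the lower ratio on the #3-1 arrays (11.6% of all probes). Of the 17 probes 8 were measured, and the counts take in those that were not. They are counts of probes, not genes: the 17 belong to 10 genes. IL1R2, a decoy receptor that binds IL-1 without signalling (A_23_P79398, chr2:102103294-102103353), gave -0.97 and -0.96 on the #3-1 arrays and -0.09 and -0.07 on the #4-7 arrays. It was 1.95-fold lower in Cy5 in the first (adjusted p = 1.9e-05), and the second did not pass (adjusted p = 0.06, limma). IL1RAP, the accessory chain that IL-1 receptors need to signal, crossed 0 between the clones at A_23_P170857 (chr3:191851670-191851729), with -0.36 and -0.48, then 0.67 and 0.66. Its difference was -1.09 (SE 0.0524, adjusted p = 0.00014, limma), while its ratio on the #3-1 arrays did not pass with offset 0 (-0.53) or background subtraction (-0.58). The other measured IL1RAP probe, A_23_P336554, gave a difference of -0.65, past the threshold. IL1R1, the signalling receptor of IL-1, was at -0.25 and 0.50 by probe A_23_P68006, and its second measured probe did not pass in either clone. IL18R1, the ligand-binding chain for IL-18, passed on the #3-1 arrays at -0.53.

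The 10 probes of the gp130 family, which signal through the shared chain IL6ST, gave 3 lower and 0 higher by limma in each clone. At an unadjusted p under 0.05 the counts were 5 and 0, then 4 and 1. Over all probes 16.4% were lower on the #3-1 arrays and 15% on the #4-7 arrays (23.8% and 21.9% of measured probes). The counts are of probes, of which IL11RA has 2. IL11RA, the receptor for IL-11, was lower in Cy5 on all arrays and on both of its probes. By A_23_P83277 (chr9:34651611-34651670) it was at -0.69 and -0.73 on the #3-1 arrays and -0.66 and -0.64 on the #4-7 arrays (1.64-fold and 1.57-fold, adjusted p = 4.1e-05 and 6.3e-05), and the difference of -0.06 did not pass (adjusted p = 0.27, limma). IL11 itself passed on the #3-1 arrays at -0.43 and was at 0.07 on the #4-7 arrays. IL6R, the receptor for IL-6, passed on the #4-7 arrays at -0.24. IL6ST had 1 measured probe, at 0.02 and 0.11, and did not pass in either clone.

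Receptors of the common gamma chain family were read in few probes. IL21R (A_24_P227927, chr16:27368825-27368884) gave -1.11 and -1.04 on the #3-1 arrays, 2.11-fold lower in Cy5 (adjusted p = 1.9e-05), and -0.13 and -0.14 on the #4-7 arrays, which did not pass (adjusted p = 0.016, limma). The difference of -0.94 passed (adjusted p = 0.00012). IL2RB, a chain shared by IL-2 and IL-15 receptors, was not well above background in Cy5 on any array and was well above it in Cy3 on all 4. By observed signal Cy3 was 1.98-fold higher on the #3-1 arrays and 1.13-fold higher on the #4-7 arrays, on values normalized by loess and Aquantile. With Cy5 not well above background these are no firm ratios, and they are open to dye bias. The main fit gave an adjusted p of 2.6e-05 on the #3-1 arrays and of 0.0036, not past the threshold, on the #4-7 arrays (limma). IL15, which is trans-presented by its receptor chain IL15RA, was at -0.08 and -0.10, then 0.19 and 0.24, and its difference of -0.31 passed (adjusted p = 0.0033, limma). That call and the one on the #4-7 arrays were lost without any 1 of the arrays, at differences between -0.34 and -0.28 and #4-7 ratios between 0.19 and 0.24. IL15RA was at -0.32 and 0.30, with a difference of -0.62 that passed.

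IL4R, the chain shared by the receptors of IL-4 and IL-13, crossed 0 between the clones. It gave -0.39 and -0.35 on the #3-1 arrays and 0.60 and 0.58 on the #4-7 arrays (A_23_P129556, chr16:27283500-27283559), 1.29-fold lower and 1.505-fold higher in Cy5 (adjusted p = 3e-04 and 8.1e-05, limma). The difference was -0.96 (SE 0.0419, adjusted p = 0.00011). Cy5 lay between 13.66 and 13.79, and Cy3 was at 14.18 and 14.06 on the #3-1 arrays and at 13.06 and 13.10 on the #4-7 arrays. IL13RA1, its partner chain for IL-13, had 3 measured probes, whose differences of 0.40 (A_24_P280113, past the threshold), 0.29 and 0.13 (not past it) shared a sign. IL13 itself, at -0.84 on the #4-7 arrays and past the threshold, was below background in both channels on the #3-1 arrays, which set no ratio there.

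Of 11 probes of the IL-17 family, that of IL17RB, the receptor for IL-25, had the largest ratio. It gave 1.00 and 0.95 on the #3-1 arrays, 1.96-fold higher in Cy5 (adjusted p = 3.8e-05, limma), and -0.18 and -0.07 on the #4-7 arrays, which did not pass (A_24_P157370, chr3:53874632-53874691). The difference of 1.102 passed (SE 0.0543, adjusted p = 0.00015, limma), but not with the authors' ratios (1.90). IL17B passed on the #4-7 arrays at 0.79 and was at 0.06 on the #3-1 arrays. IL17RE, a receptor for IL-17C, was lower in Cy5 in both clones, at -0.50 and -0.23. The group held 1 higher and 1 lower on the #3-1 arrays and 1 higher and 3 lower on the #4-7 arrays. Over all probes the shares were 16.3% and 16.4%, then 16.1% and 15%.

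The remaining groups had smaller ratios. IL28RA, now IFNLR1, the specific chain of the interferon lambda receptor, was at 0.12 and 0.15 on the #3-1 arrays and 0.49 and 0.56 on the #4-7 arrays (A_23_P74112, chr1:24226073-24226132), with a difference of -0.39 that passed (adjusted p = 0.0018, limma) and was lost without any 1 of the arrays, at -0.43 to -0.36. Within the same group IL22RA1, which makes epithelium responsive to IL-22, passed on the #3-1 arrays on both measured probes, at 0.44 and 0.36, and IL10RA passed there at -0.39 and -0.31. IL27RA, the receptor of IL-27, was at 0.58 and 0.47, then 0.14 and 0.14 (A_24_P348326, chr19:14024966-14025025), with a difference of 0.38 that passed (adjusted p = 0.003, limma). This was lost without #3-1 array 1 (0.33), #4-7 array 1 (0.39) or #4-7 array 2 (0.38). IL12A, a subunit of IL-12, was at -0.30 and 0.25, past the threshold in both clones. IL4I1, an amino acid oxidase that carries an interleukin name by its induction and is no cytokine, passed on the #4-7 arrays at 0.44, which was lost without array 1 (0.41) or array 2 (0.46) of that clone.

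**Figure D4:**
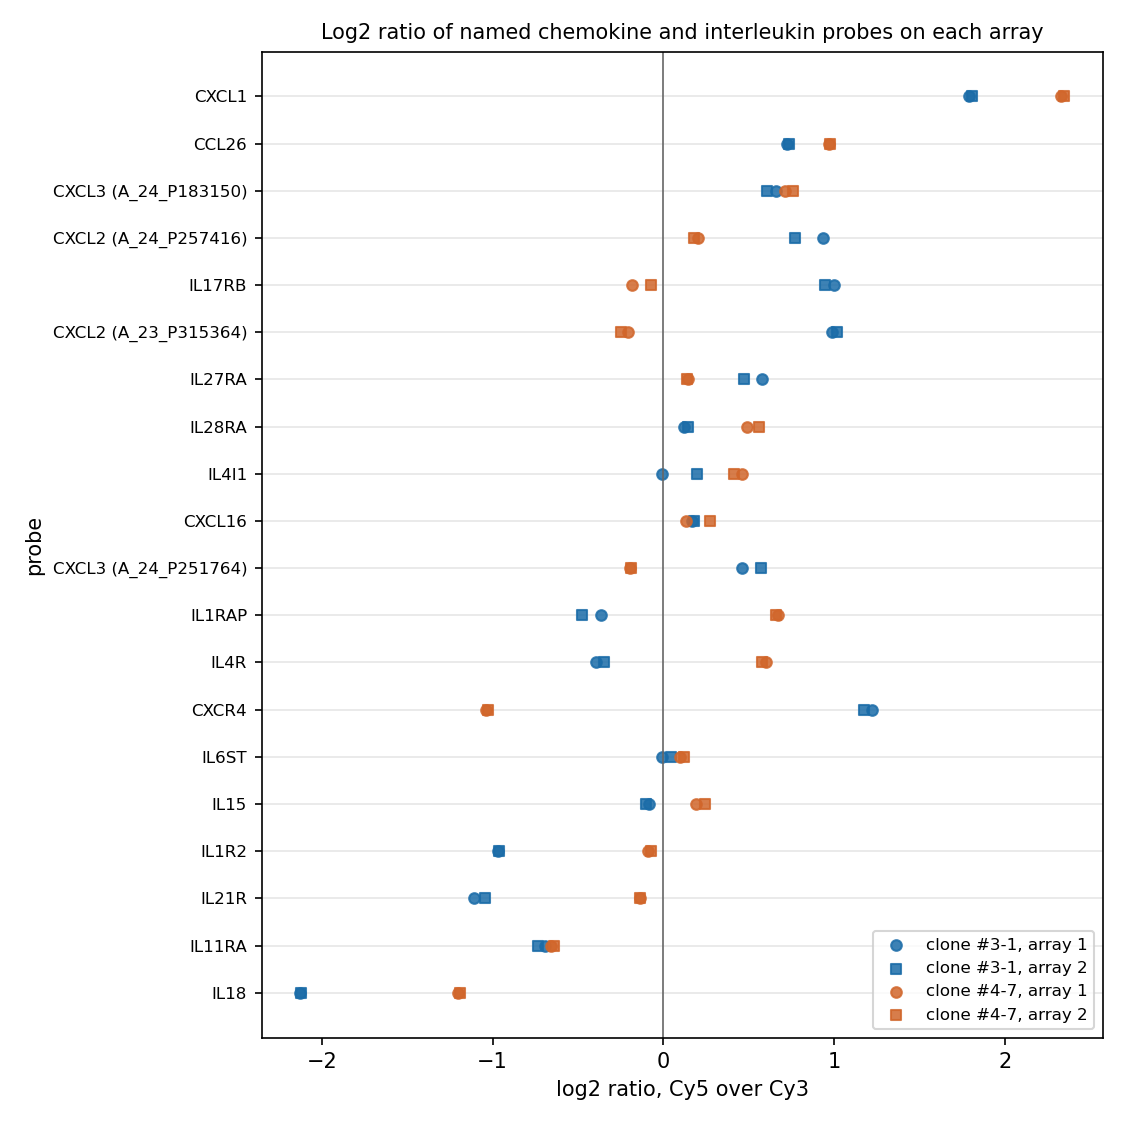
Log2 ratio of Cy5 over Cy3 (x axis) on each array for 20 measured probes (y axis), with the #3-1 arrays in blue and the #4-7 arrays in orange, and the arrays of a clone as circle and square. CXCL1 lies highest and IL18 lowest in both clones, and CXCR4, IL4R and IL1RAP lie on opposite sides of 0 in the clones.

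Of 13 genes with more than 1 measured probe, 0 had probes past the threshold in opposite directions, and the probes of CXCL3 and IL1R1 lay over 0.5 apart on the #4-7 arrays.

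Genes around these ligands and receptors were read from 4 lists with 1 probe a gene, of which 45 genes passed on the #3-1 arrays (29 and 28 without array 1 or 2) and 49 on the #4-7 arrays (29 and 28 without array 1 or 2). Over the array 32.7% and 31.1% of all probes passed, and 47.9% and 45.5% of measured probes. Of 42 genes of NF-kB and IL-1 signalling, 8 were higher and 10 lower in Cy5 on the #3-1 arrays (median 0.00), and 21 were higher and 5 lower on the #4-7 arrays (median 0.20), against a median of 0.01 over all probes in both and shares of 16.3% higher and 16.4% lower, then 16.1% and 15%, over all probes (24% and 23.8%, then 23.6% and 21.9%, over measured probes). BIRC3, an NF-kB target that restrains cell death, was at -1.34 and 1.01, and NLRP1, an inflammasome sensor, at -0.84 and -0.46. The inflammatory caspases CASP4 and CASP5 had the largest ratios on the #4-7 arrays, 2.90 and 2.70, and were at 0.17 and 0.29 on the #3-1 arrays.

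Of 36 genes of gp130 and JAK-STAT signalling, 7 were higher and 5 lower on the #3-1 arrays, and 7 higher and 6 lower on the #4-7 arrays, so that 12 and 13 passed where 32.7% and 31.1% of all probes did. JAK3, the kinase of the common gamma chain, was at -0.97 and -0.50. OSM, a gp130 cytokine, passed in both clones, at -0.71 on the #3-1 and -0.32 on the #4-7 arrays. SOCS6 and SOCS2, of the family that damps cytokine receptors, also passed in both. SOCS6 had opposite signs, at 0.38 and -0.72, and SOCS2 was at 0.45 and 0.55.

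Of 20 other genes of the chemokine system, 8 were measured, with 2 higher and 2 lower on the #3-1 arrays and 0 higher and 2 lower on the #4-7 arrays by limma (3 and 5 at an unadjusted p under 0.05). CKLF and the CMTM genes are a family named for chemokine-like factor. Within it CMTM3 was at 0.80 on the #3-1 and 0.11 on the #4-7 arrays, and CKLF at 0.49 and -0.11, past the threshold on #3-1 only. CMTM6, which stabilises PD-L1, was at -0.07 and -0.60, past it on #4-7 only. CMTM4 passed in both clones, at -0.37 and -0.28. Of 20 other cytokines, growth factors and their receptors 13 were measured. On the #3-1 arrays 6 were higher and 5 lower, and on the #4-7 arrays 3 higher and 5 lower. Beside the counts of both lists stand shares of 16.3% higher and 16.4% lower, then 16.1% and 15%, over all probes. Over measured probes they were 24% and 23.8%, then 23.6% and 21.9%. CSF1R, the receptor for CSF1, passed in both clones, at -2.30 on the #3-1 and -0.38 on the #4-7 arrays. EREG, an EGF receptor ligand, passed in both with opposite signs, at 0.79 and -0.39. EDN1, the precursor of endothelin, was at -0.14 and -1.89, past the threshold on the #4-7 arrays only. HBEGF, another EGF receptor ligand, passed in both with opposite signs, at 0.25 and -0.73.

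These p-values rest on 2 arrays a clone, which limits their precision, on the spread between arrays that may be technical, and on a control that is 1 RNA by its labels, whose own spread is left out. All arrays lie on 1 slide without dye swaps, so an effect of dye on a ratio cannot be told apart from a difference between the RNAs.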

How the data were processed

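The authors deposited, per array, the mean intensity of each spot and its median local background in both channels, processed intensities, flags (other) of 0 or 1 and the log10 ratio of Cy5 over Cy3, as read by Agilent Feature Extraction; the file headers give version 9.5.3.1 and the submitters' processing notes 8.5.1.1. Probe positions are hg17. The deposited table of log10 ratios lay within 0.005 of those in the scanner files.

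Intensities were background corrected (normexp, offset 50), outlier spots (87 to 125 of 43376 per array) left out, and ratios normalized by loess within and quantiles between arrays on the log2 scale, with spots of a probe averaged (R 4.3.3, limma 3.58.1). A model with a term per clone was fitted over all 41000 probes and 4 arrays, and its p-values adjusted by Benjamini-Hochberg over all of them; single channels were fitted likewise. On simulated data with independent noise of the fitted size, most probes changed by a log2 size of 1 or 2 were recovered. That checks the running of the fit only and does not bear on dye, the shared control RNA or technical spread. Spots well above background made up 71.5% to 72.6% in Cy5 and 68.5% to 71.8% in Cy3. The 185 probes follow a rule on gene names. Named are probes past the threshold with a log2 size of at least 1, the largest ratio of each role group among measured probes, preset genes and the 2 largest of each list per clone; further probes past the threshold were named after their values were seen. The members and lists were chosen with earlier results of these data known. Alternatives changed background, normalization, filter, threshold, replicate block and arrays. Some genes are not reported here.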

Additional observations from a re-analysis of the deposited data

Results flagged for a closer look

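The log2 ratio differed between the clones, by limma's contrast at p under 0.001, in 14 of the named probes. The difference, #3-1 minus #4-7 as Cy5 over Cy3, was 2.23 for CXCR4, 1.23 and 0.66 for the CXCL2 probes, 0.71 for the CXCL3 probe A_24_P251764, 1.102 for IL17RB and 0.38 for IL27RA. It was -0.54 for CXCL1, -0.31 for IL15, -0.94 for IL21R, -0.88 for IL1R2, -1.09 for IL1RAP, -0.93 for IL18, -0.39 for IL28RA and -0.96 for IL4R. All of these moved further in the Cy3 channel than in the Cy5 channel. The labels put the same RNA in Cy3 on every array. Over the measured probes of the array, levels nevertheless differed more between the clones' arrays in Cy3 (SD 0.464) than in Cy5 (0.127). Whether the dyes were exchanged in the labels was not tested.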

How the results depend on the processing

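Counts of probes past the threshold depended on the background correction and the threshold. On the #3-1 arrays (16 higher and 20 lower), normexp with offset 0 left 12 higher and 10 lower, plain subtraction 9 higher and 8 lower, the software's processed signals 10 higher, the authors' log10 ratios 8 higher and 16 lower, and an adjusted p under 0.05 gave 25 higher and 37 lower. On the #4-7 arrays (16 and 13), the lower probes came to 6 with offset 0 and to 7 with subtraction, processed signals and the authors' ratios, the higher ones to 10 with subtraction, and the adjusted p gave 38 and 30. The difference between the clones (33) passed in 17, 15, 16, 16 and 57 probes under the same settings, and in 1 on Cy5 alone. The genes of the 4 pathway lists (45 and 49 called) came to 29 and 31 with offset 0, 25 in each clone with subtraction, 30 for #4-7 with processed signals and 74 for #3-1 by adjusted p. The SD between the clones' arrays over the 66 measured probes was 0.222 in Cy5 and 0.815 in Cy3 with processed signals.

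Leaving out 1 array gave 10 to 18 lower for #3-1, 9 to 15 higher and 6 to 9 lower for #4-7, 20 to 22 differences, and 28 to 35 and 28 to 41 list genes. Fewer arrays were then fitted, and the lone array of a clone was assumed to vary like those of the other. With 1 array left out, some of the values of 24 probes lost their call and 11 turned sign. Under the other 12 alternatives 740 stayed called or stayed uncalled, 54 lost their call, 23 gained it and 11 turned sign. The 740 include values that were never called, so they do not count the calls that held. Why these calls moved was not tested.

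The values that turned sign were all uncalled. The difference of CXCL3 probe A_24_P183150 was 0.022 and that of CXCL16 0.028 without normalization between arrays or with Aquantile. IL6ST probe A_24_P935033 on the #4-7 arrays was at -0.043 with subtraction and -0.37 with processed signals or the authors' ratios. The difference of IL32 was 0.19 with those signals or ratios and 0.0043 without normalization between arrays or with Aquantile. With 1 array left out, IL32 spanned -0.061 to 0.082 (#3-1), -0.058 to 0.13 (#4-7) and -0.12 to 0.068 (difference), IL6ST probe A_24_P935033 -0.11 to 0.056, -0.17 to 0.19 and -0.22 to 0.14, IL6ST probe A_23_P502470 -0.0085 to 0.043 (#3-1), IL4I1 -0.0059 to 0.198 (#3-1) and CXCL16 -0.099 to 0.046 (difference).

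Replicate numbers do not pair the arrays: deviations of the arrays numbered 1 correlated at -0.013 across 40940 probes. With the number as a block, 15 higher and 17 lower passed for #3-1, 14 and 9 for #4-7, and 27 in the difference. Each clone on its own arrays gives no value for the difference. For probes under background the arrays set no ratio.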
